A study of Saccharomyces cerevisiae with 8 samples.

Results

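The genes described here encode the proteins of the small (40S) ribosomal subunit of budding yeast. They were taken as all genes of the R64 annotation whose symbol is RPS, a number and an optional copy letter A or B. Of 56 such genes, 35 lie on the 8 chromosomes (II, V and XI to XVI) where the deposited positions matched R64, and these 35 of 3432 placed protein-coding genes are the members. The other 21 genes were not analysed here. The series holds 8 samples of strain AM1003, all titled WT (wild type). Of these, 4 are chromatin immunoprecipitates of Rpb1, the catalytic core subunit of RNA polymerase II. All cultures were grown in raffinose and carried an HO endonuclease under galactose control. The 0 h group (n = 2) was collected untreated, and the 6 h group (n = 2) was collected 6 h after addition of 2% galactose, which induces the HO double-strand break. The 4 input samples were not analysed here. Galactose is also a new carbon source, so effects of the break and of the sugar cannot be told apart between these groups. The stated aim of the series is to follow polymerase on genes of the template of break-induced replication, and the ribosomal protein genes were not chosen for that question.

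The small subunit binds mRNA, holds the decoding centre and recruits the initiator tRNA. Its proteins are made in large and matched amounts, so their genes are among the most heavily transcribed in growing yeast. Rap1, Fhl1 and Ifh1 act at most of their promoters, with output tied to nutrients through the TORC1 and protein kinase A pathways. Most of the proteins are encoded by a duplicated pair of genes, A and B, and many of the genes hold an intron. Rpb1 crosslinks along the whole transcribed unit, from the promoter to the region past the polyadenylation site where polymerase is released.

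Values were deposited as a separate set of peak summits for each library. A summit is the single base of highest enrichment in a called peak, and it carries a score. In replicates 1 and 2 the sets numbered 1186 and 1194 summits before galactose, and 1288 and 1074 summits after it. The score is a −log10 p or q value that is not normalised between libraries, so a rank counts from 1 at the highest score within its own list. A gene counted as having a summit if one lay between its start and stop codon or within 250 bp of either. No member had more than 1 summit in that window in any library. The position of a summit is given in bp from the start codon in the direction of transcription, and the displacement of a gene is the mean 6 h position minus the mean 0 h position. As a check of the treatment, GAL1, GAL10 and GAL2 of galactose use each had a summit in every 6 h library and in no 0 h library. With 2 libraries against 2, an exact permutation of libraries cannot give a p below 0.33, so the values below are descriptions set against the spread between replicates and against all placed genes.

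Small-subunit ribosomal protein genes carried Rpb1 summits at both time points, and at 6 h in galactose the summits lay further towards the 3′ end. A summit was present at 26 and 29 of the 35 genes at 0 h and at 27 and 27 at 6 h. The shares of all placed genes with one were 19.8% and 19.5% before galactose, and 23.3% and 20.4% after it. In all 4 libraries a summit was present at 24 of the 35, against 9.88% of all placed genes, and 4 of the 35 had none in any library, against 67%. With gene bodies alone, a rule that drops every summit past the stop codon, 7 of the 35 had a summit in all 4 libraries. The share of all placed genes under that rule is not given here, so this count has no background. One gene met the rule for loss (both 0 h libraries and neither 6 h library) and 1 gene the rule for gain, against 3.06% and 4.31% of all placed genes, so both counts were near the background. Without 0 h replicate 1 the lost genes numbered 3, and without 0 h replicate 2 the gained genes numbered 2. Here and below, leaving out a library loosens the rule, so a count can only stay or rise.

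The 24 genes with a summit in all 4 libraries could be followed from 0 h to 6 h. Their median summit position was 435 ± 1.8 bp (SD, n = 2) at 0 h and 772.5 ± 11 bp (SD, n = 2) at 6 h. Relative to the stop codon, with positive values past it, the medians were -378 and -295 bp in the 0 h libraries and 45.5 and 7.5 bp in the 6 h libraries. The median displacement was 297.5 bp downstream, with quartiles of 168 and 511 bp, against 84.5 bp over all 339 placed genes with a summit in all 4 libraries. The 4 possible pairs of a 0 h and a 6 h library gave medians of 295 to 325 bp for the 24 genes and of 56 to 73 bp for all 339. Replicates differed by a median of 117 bp at 0 h and 31 bp at 6 h in the 24 genes.

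In 19 of the 24 genes the 6 h summits of both replicates were further downstream than either 0 h summit, against 40.7% of all placed genes with a summit in all 4 libraries. The reverse held in 1 of the 24, against 10.3%, and the time points overlapped in 4. The reverse count was 3 without 0 h replicate 1 and 2 without 6 h replicate 1. The mean displacement was above 0 in 23 of 24, against 70.2%. In 12 of the 24 genes the displacement was larger than both gaps between replicates, and all 12 were downstream. Such displacements in either direction were found in 32.4% of the 339 placed genes, and downstream ones in 25.4%. The same direction was seen on both DNA strands, with a median of 297.5 bp in 18 genes on the + strand and 383 bp in 6 genes on the − strand.

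**Figure D1:**
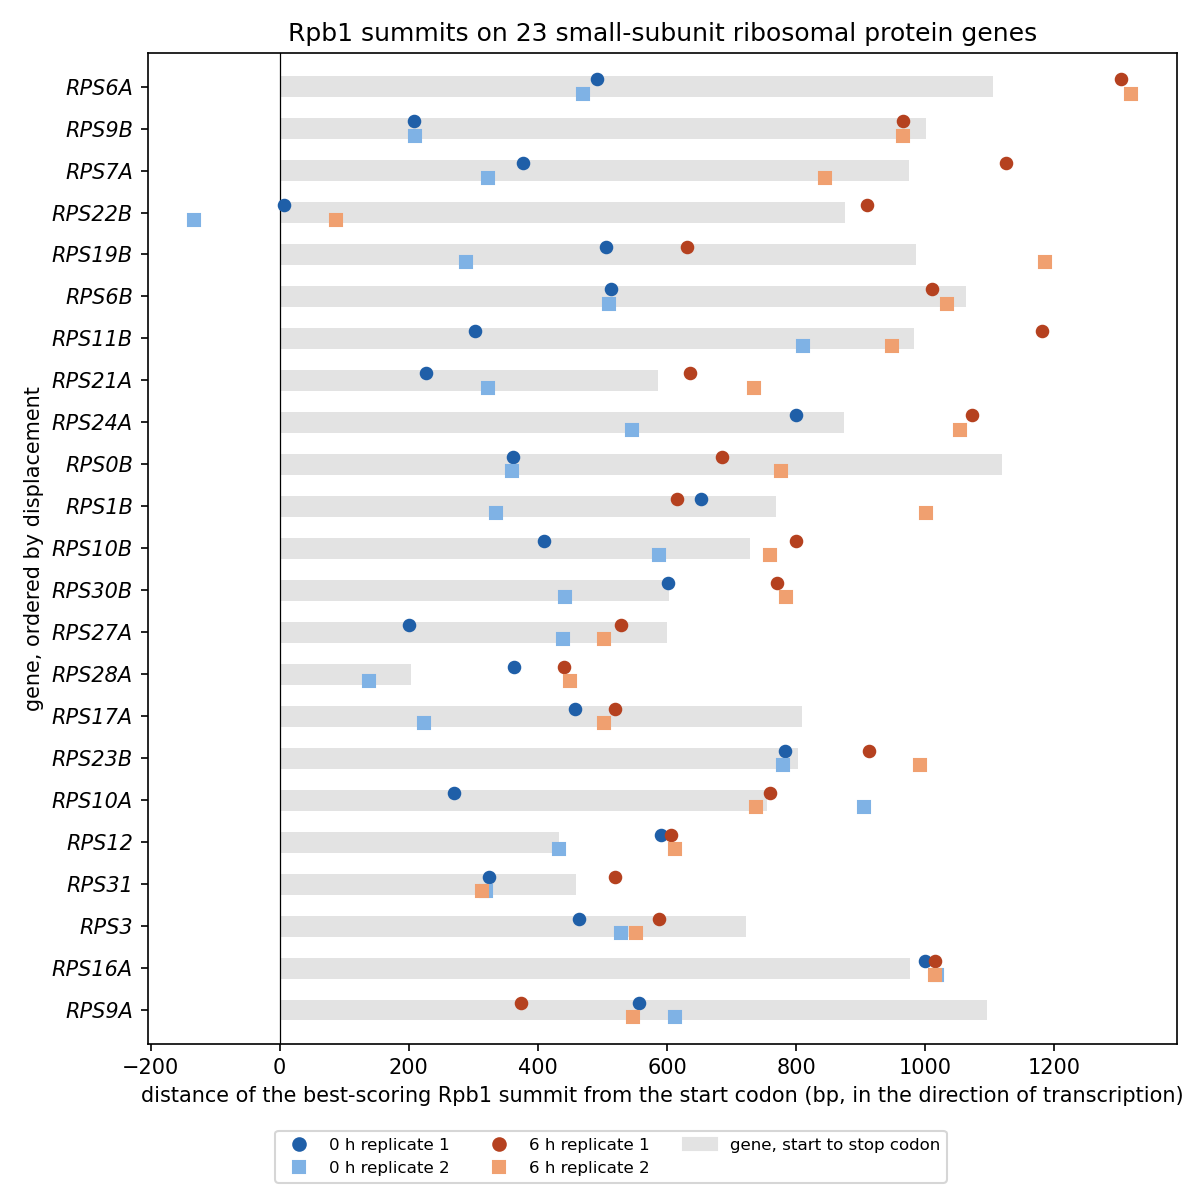
Position of the best-scoring Rpb1 summit on 23 of the 24 genes with a summit in all 4 libraries, in bp from the start codon (horizontal axis), one row per gene ordered by displacement, with a point per library and a grey bar from start to stop codon. Both 6 h points lie to the right of the 0 h points in 18 of the 23 rows, and in 9 rows both 6 h points lie past the end of the bar.

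At 6 h the best summit of both replicates lay past the stop codon in 10 of the 24 genes, and in both 0 h libraries in 2 (4 without 0 h replicate 1). Over all 339 placed genes these shares were 36.3% and 21.5%. The 6 h count of 10 is close to that background. It was 15 without 6 h replicate 2, for which no share over all placed genes is given here. At 0 h the summit lay inside the gene at 20 and 19 of the 24 in replicates 1 and 2, past the stop codon at 3 and 3, and before the start codon at 1 and 2. At 6 h it lay inside at 9 and 12 and past the stop codon at 15 and 12. The strands differed in the 6 h count, with 6 of 18 genes on the + strand and 4 of 6 on the − strand. Over all placed genes these counts were 70 of 211 and 53 of 128. Relative to the stop codon, the 6 h medians of members were 37.5 and -33 bp (+ strand) and 171.5 and 191 bp (− strand). The cause of this strand gap was not tested.

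**Figure D2:**
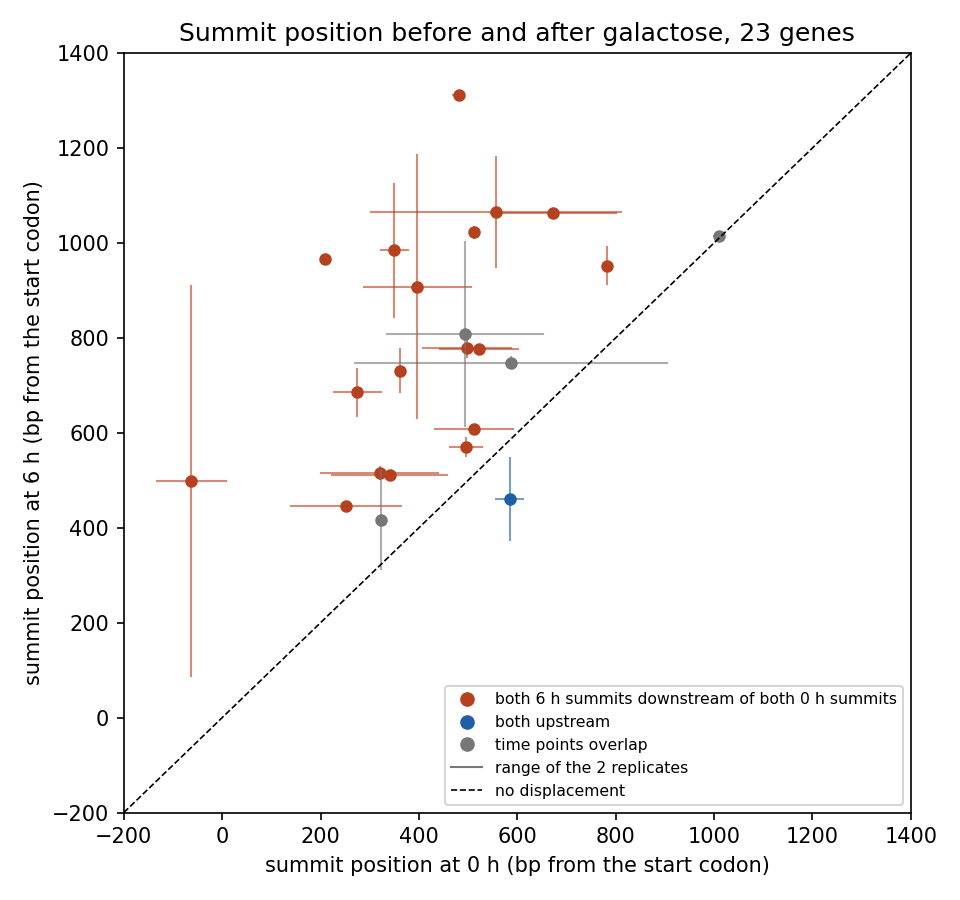
Mean summit position at 6 h (vertical axis, bp from the start codon) against that at 0 h (horizontal axis) for the same 23 genes, with lines spanning the 2 replicates of each time. Points above the dashed line of no displacement are 22 of 23, and the single point below it is RPS9A.

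Among genes whose time points did not overlap, the 5 described next had displacements of 511 to 829.5 bp. RPS6A, for the protein that is phosphorylated in response to TORC1, had positions of 492 and 470 bp at 0 h and 1303 and 1318 bp at 6 h. Its displacement was 829.5 bp, and the replicates of a time point differed by at most 22 bp. RPS9B (Rps9, a protein near the mRNA entry channel that affects decoding accuracy) had 208 and 210 bp at 0 h and 966 bp in both 6 h libraries. The displacement of 757 bp took the summit from the 5′ part of the gene to 34 bp before its stop codon.

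In the other 3 of these genes the replicates of 6 h were further apart. RPS7A had summits at 377 and 323 bp at 0 h and at 1125 and 844 bp at 6 h, a displacement of 634.5 bp against a gap of 281 bp between the 6 h replicates. RPS22B, whose intron holds the small nucleolar RNA gene SNR44, had summits at 7 and -132 bp at 0 h and at 910 and 88 bp at 6 h. Its time points did not overlap, but the gap of 822 bp between the 6 h replicates exceeded its displacement of 561.5 bp. RPS19B had summits at 506 and 288 bp at 0 h and 631 and 1185 bp at 6 h, where the gap of 554 bp also exceeded the displacement of 511 bp. RPS22B, RPS19B and RPS7A each shared a 6 h summit with the window of a neighbouring gene (MDM30, YPT11 and YOR097C), and RPS6A shared the summit of both 6 h libraries with GLR1. The part of those neighbours in the summit was not tested.

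RPS9A was the one gene with both 6 h summits upstream of both 0 h summits. It had summits at 557 and 612 bp at 0 h and at 374 and 547 bp at 6 h. The displacement of -124 bp was smaller than the gap of 173 bp between the 6 h replicates. The summit stayed within the gene, which spans 1095 bp, in all 4 libraries.

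The time points overlapped at RPS16A, RPS31, RPS10A and RPS1B. RPS16A, for a protein whose tail reaches the P-site tRNA, had its summit at 1000 and 1018 bp at 0 h and 1015 bp in both 6 h libraries, always just past the stop codon. RPS31, which encodes a ubiquitin joined to a ribosomal protein, had 324 and 320 bp at 0 h and 520 and 313 bp at 6 h. Its 6 h replicate 2 was at the 0 h site and its replicate 1 past the stop codon, where the summit was shared with UPS2. RPS10A had 270 and 905 bp at 0 h and 759 and 737 bp at 6 h, so the 0 h replicates enclosed the 6 h ones. All of these but the summit at 270 bp were shared with YOR293C-A. RPS1B had 652 and 335 bp at 0 h and 615 and 1001 bp at 6 h, and the summit at 1001 bp was shared with MFT1.

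A further 13 of the 24 genes had both 6 h summits downstream, by 74 to 510.5 bp. RPS3, a protein of the mRNA entry channel, had the smallest shift, from 463 and 529 bp to 588 and 552 bp. RPS6B had among the largest, from 513 and 510 bp to 1011 and 1033 bp. RPS12 (a protein of the subunit beak) had 591 and 433 bp at 0 h against 606 and 612 bp at 6 h. The gap of 158 bp between its 0 h replicates exceeded its displacement of 97 bp. Its summit was shared with RAD17 in every library. RPS28A, a very short gene of 204 bp, went from 363 and 139 bp to 441 and 449 bp. Displacements were 508 bp at RPS11B, 410.5 bp at RPS21A, 390 bp at RPS24A and 370 bp at RPS0B. They were 280.5 bp at RPS10B, 255.5 bp at RPS30B, 195 bp at RPS27A, and 170.5 bp at both RPS17A and RPS23B. Best summits were also shared at RPS23B (SPN1, every library) and RPS28A (SWT1, 0 h replicate 1 and both 6 h libraries). At RPS30B (LAS17) and RPS10B (YMR230W-A) the summits of both 6 h libraries were shared. The part of these neighbours in the summits was not tested. RPS0B, whose protein is needed to mature the small-subunit ribosomal RNA in yeast, had 0 h replicates only 2 bp apart, at 362 and 360 bp, and 6 h summits at 685 and 777 bp, all within the gene.

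By gene length, the median displacement was 194 bp in 5 genes up to 600 bp long, 268 bp in 10 genes over 600 and up to 900 bp, and 510.5 bp in 9 genes over 900 bp. Across the 24 genes, which share the same 4 libraries, the gene span and the displacement had a Pearson r of 0.31 and a Spearman rho of 0.35, given as a description. A short gene offers a summit less room within 250 bp of its ends. By the orientation of the next gene, the median was 225 bp in 16 genes facing a convergent neighbour and 400 bp in 8 genes with a neighbour in tandem. Of the 24 genes, 12 shared no best summit with another gene in any library. These had a median displacement of 380 bp, with 10 displaced downstream and 1 upstream. No values over placed genes that share no best summit are given here, so these have no like background.

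A summit within 250 bp was missing from at least 1 library at 11 of the 35 genes, and at most of these the nearest summit lay further downstream. Of 31 cases of a gene without a summit in a library, the nearest summit lay past the stop codon in 27, at 10 different genes. Those 27 summits lay 256 to 1248 bp past the stop codon (median 407 bp) with scores of 18.9 to 90.1. Some of them were the best summit of the next gene, such as SEC39 at RPS1A and YOX1 at RPS18B. No share over all placed genes without a summit is given here, so these counts have no background. Of the 14 placed genes on the − strand, 6 had a summit in all 4 libraries, against 18 of the 21 on the + strand. All placed genes showed a gap between the strands too, with 12.2% on the + strand and 7.5% on the − strand. How closely the positions of the lists and of the annotation match at each gene was not tested, and a missing summit at these genes does not show that polymerase was absent.

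**Figure D3:**
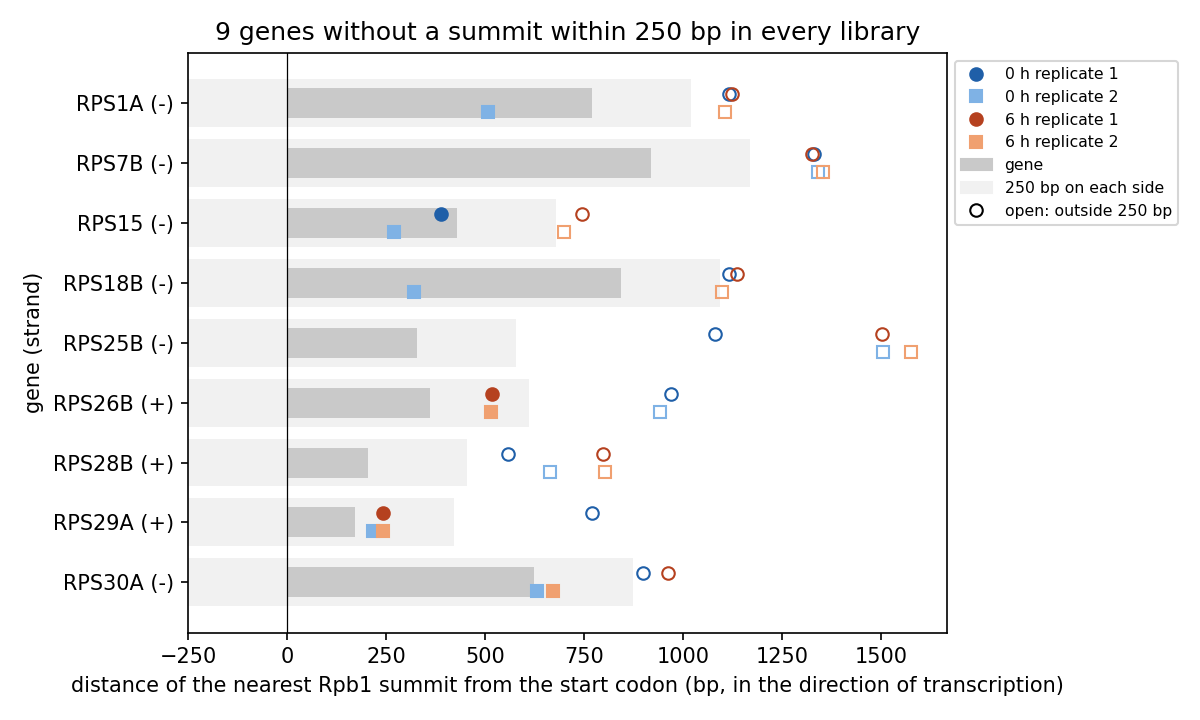
Nearest Rpb1 summit in each library (points) at 9 of the 11 genes without a summit within 250 bp in every library, in bp from the start codon (horizontal axis), with the gene in dark grey, 250 bp on each side in light grey, and open symbols outside that window. All 25 open symbols drawn lie past the stop codon.

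RPS15, for a protein close to the decoding site, was the gene that met the rule for loss. It had summits at 387 and 268 bp at 0 h, inside the gene, with scores of 35.3 and 27.8. At 6 h its nearest summits were 315 and 270 bp past the stop codon, with scores of 23.95 and 36.6, just outside the 250 bp limit. Both were also the best summits of NOP12, the next gene, and which gene they belong to was not tested. RPS26B, for a protein at the mRNA exit channel, was the gene that met the rule for gain. Its 6 h summits lay at 516 and 515 bp, or 157 and 156 bp past the stop codon. Its nearest 0 h summits lay 609 and 582 bp past the stop codon, at 37 and 10 bp from the small nucleolar RNA gene SNR4.

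Small RNA genes followed directly downstream of RPS25B, RPS26B, RPS29A and RPS7B, and none of these 4 had a summit within 250 bp in all 4 libraries. RPS25B had its nearest summits 754 to 1248 bp past the stop codon, within 161 bp of SNR55 or SNR61. RPS29A had 768 and 217 bp at 0 h and 242 bp in both 6 h libraries, and the summit at 768 bp lay 37 bp from SNR34. RPS7B had 1331 and 1340 bp at 0 h and 1324 and 1352 bp at 6 h, next to a tRNA gene. Which of the neighbouring genes these summits belong to was not tested. RPS25B and RPS7B lacked a summit inside the window throughout.

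At RPS1A, RPS18B and RPS30A the 0 h replicates disagreed on whether a summit lay in the window. RPS1A had its 0 h replicate 2 summit at 506 bp, inside the gene. In the other 3 libraries its nearest summit lay 339 to 356 bp past the stop codon. RPS18B was the same, with 319 bp in 0 h replicate 2 and 256 to 295 bp past the stop codon in the other 3. The summits past the stop codon were also the best summits of the next genes, SEC39 at RPS1A and YOX1 at RPS18B. RPS30A had 630 bp at 0 h and 670 bp at 6 h in replicate 2, and 899 and 961 bp in replicate 1. Its replicate 1 summits were shared with YLR287C. In this gene the replicates differed more than the time points.

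RPS28B and RPS19A also lacked a summit inside the window throughout. RPS28B, which in yeast limits its own mRNA through its 3′ untranslated region, had its nearest summits at 558 and 663 bp at 0 h and 797 and 803 bp at 6 h. These lay past the stop codon, shared with the window of YLR264C-A.

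With the window widened to 1000 bp past the stop codon, a choice made after seeing these positions, summits were found at 33 of the 35 genes in all 4 libraries, against 17.1% of all placed genes. RPS19A and RPS25B were the exceptions. Both 6 h summits were downstream in 21 of the 33 and upstream in 2 (RPS9A and RPS26B), against 36.4% and 18.2% of all placed genes. In 19 of the 33 both 6 h summits were past the stop codon, and in 8 both 0 h summits were, against 60.5% and 45.6%, so the 6 h count is near the background. By strand, the 6 h count was 9 of 21 (+) and 10 of 12 (−). The median displacement was 255.5 bp. No member was lost and none gained, against 3.03% and 4.87%.

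Scores placed the members high in their own lists. Their best summits had median ranks of 167.5 and 168 before galactose, and 153 and 164 after it. The scores of members had medians of 34.9 and 34.6 before galactose and 38.0 and 42.8 after it, against 8.28, 8.15, 8.29 and 10.3 over all placed genes with a summit in the same libraries. Among the 100 highest summits of a list, 6 and 6 belonged to members at 0 h and 11 and 7 at 6 h. The share of all placed genes among those summits is not given here. Ranks in lists of different length do not show a change over time.

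The best mean ranks were those of RPS31, RPS9A, RPS12, RPS3, RPS16A and RPS9B. RPS31 ranked 13 and 8 at 0 h and 12 and 19 at 6 h, with scores of 93.7, 107, 80.5 and 112. RPS9A ranked 46 and 13 at 0 h and 39 and 24 at 6 h. RPS12 ranked 30 and 32 and then 52 and 33, and RPS3 ranked 58 and 49 and then 49 and 44. The RPS12 summit was also the best summit of RAD17 in every library, so its ranks cannot be assigned to RPS12 alone. RPS16A ranked 105 and 79 and then 53 and 39, and RPS9B 150 and 125 and then 79 and 129. Of these 6 genes only RPS9B was displaced downstream by more than 100 bp. The lowest rank of the 24 was at RPS28A, with 320 and 280 at 0 h and 406 and 501 at 6 h.

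**Figure D4:**
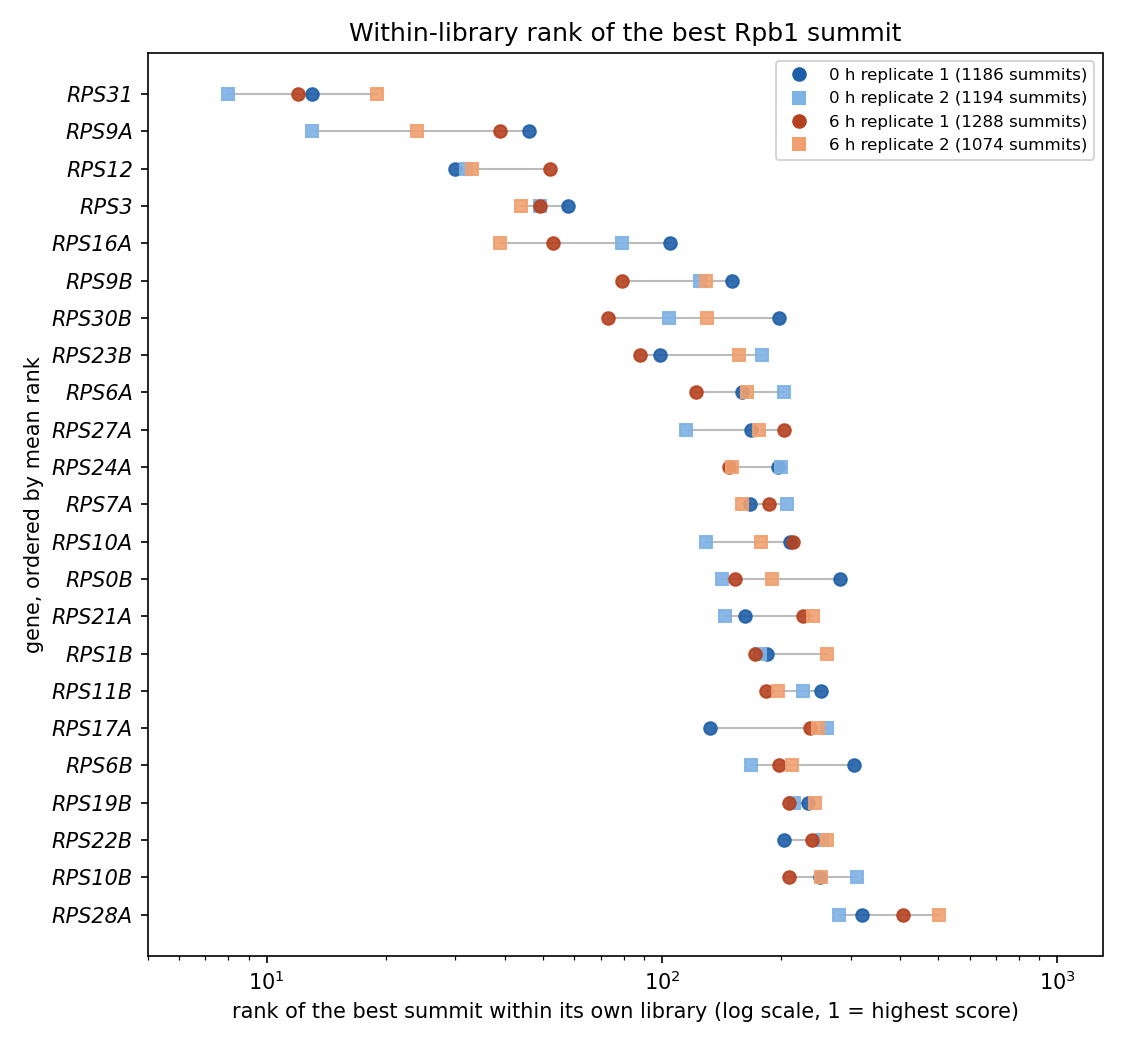
Rank of the best Rpb1 summit within its own library (horizontal axis, log scale, 1 is the highest score) for 23 of the 24 genes with a summit in all 4 libraries, one row per gene ordered by mean rank. RPS31 sits at ranks 8 to 19 in every library, and RPS28A at 280 to 501.

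Copies of a duplicated gene differed in where their summits lay. Both copies were placed for 9 pairs, among them RPS1, RPS6, RPS7, RPS9, RPS10, RPS19, RPS28 and RPS30, which hold 18 of the 35 members. A further 13 members have a copy that was not placed, and 4 (RPS3, RPS12, RPS15 and RPS31) have none. Reads from near-identical copies can be assigned to either one, and how such reads were handled is not given in the sources used here, so values of single copies are uncertain.

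Both copies had a summit in all 4 libraries in 3 pairs. In RPS6 both copies were displaced downstream, by 829.5 bp for A and 510.5 bp for B. The 6 h summits of RPS6A are shared with GLR1, and with genes that share a best summit left out, 0 pairs had both copies downstream. RPS9 was the pair with the widest contrast, at -124 bp for A and 757 bp for B, and the copies have spans of 1095 and 1001 bp. In RPS9B the 0 h and 6 h replicates agreed within 2 bp, while those of RPS9A differed by 55 and 173 bp. RPS10 gave 160.5 bp for A, with overlapping time points, and 280.5 bp for B, which went from 409 and 588 bp to 799 and 759 bp.

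In the other 6 pairs 1 copy lacked a summit within 250 bp in some library. RPS7A was displaced by 634.5 bp and the nearest summits of RPS7B stayed between 1324 and 1352 bp in all 4 libraries. The copy with a full set was displaced by 314.5 bp in RPS1B, 511 bp in RPS19B, 194 bp in RPS28A and 255.5 bp in RPS30B. RPS30B went from 601 and 442 bp to 770 and 784 bp. Differences between copies were not tested, since each copy has 2 libraries per time point.

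Other genes of the same machinery are given for comparison. Of 45 placed large-subunit ribosomal protein genes, 33 had a summit in all 4 libraries, with 24 displaced downstream and 0 upstream. Their median displacement was 339.5 bp, and 4 were lost and 0 gained. The difference from the small-subunit genes was not tested. Of 13 regulators of ribosomal protein gene transcription 8 were placed. RAP1, FHL1, SFP1 and TBF1 had no summit in the window in any library, which is 4 of 8 against 67% of all placed genes. DOT6 was the one regulator with a summit in all 4 libraries, and it shared a best summit with another gene. Its best summits lay at -83 and -65 bp at 0 h and at 766 and 2190 bp at 6 h. They scored 8.26 and 9.11 before galactose and 3.96 and 4.32 after it. These scores belong to different sites and are not normalised between libraries, so they do not show a change over time. TOD6, like DOT6 a repressor of ribosome biogenesis genes, had summits with scores of 7.69 and 12.7 at 6 h and none at 0 h. Of 18 small-subunit assembly and chaperone genes, 13 were placed and 0 had a summit in all 4 libraries, near the 9.88% of all placed genes. The 2 that met the rule for gain compare with 4.31% of all placed genes. These were LTV1 and NOC4, both assembly factors, which had summits at 6 h in both replicates and none at 0 h. LTV1 had scores of 16.6 and 10.6, and NOC4 of 14.3 and 10.8. DIM1, NOB1, TSR2, TSR4 and YAR1 had no summit in any library, which is 5 of 13 against 67% of all placed genes. ASC1, the scaffold protein bound to the head of the small subunit, had summits at 741 and 523 bp at 0 h and 1016 and 1256 bp at 6 h. This is a displacement of 504 bp in the direction of most members, but ASC1 shared a best summit with another gene. STM1, listed with ASC1, had summits at 494 and 856 bp at 0 h. It had 927 bp in 6 h replicate 1 and none in 6 h replicate 2.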

How the data were processed

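Rpb1 chromatin immunoprecipitation libraries of strain AM1003 (2 at 0 h, 2 at 6 h) were grouped by sample title, and no label says that replicates were separate cultures, so the spread may be technical. The submitters' processing notes list MACS2 2.2.7.1, SAMtools 1.10, Bowtie2 2.2.4 and fastp 0.20.1, without roles. The authors deposited 1 summit list per library, with a −log10 p-value or q-value as score, and the lists start at scores of 2.03, 2.16, 2.00 and 2.02. The genome build, the threshold, the handling of multiply mapping reads, the use of inputs and the read depth are not stated. A score grows with depth, so scores served only to rank summits within a list.

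Genes came from a RefSeq table of assembly R64 without sequences, and strand from the systematic names. Since the match of lists and R64 is inferred, it was checked with 113 landmarks that are no members (genes of large-subunit ribosomal proteins, small nucleolar RNAs, glycolysis and translation factors). On the 8 chromosomes, 84.2% to 100% had a summit within 250 bp, and the best shift in a scan of 12000 bp to each side lay between -200 and 0 bp. Distances to codons share that uncertainty. A constant offset cancels in the displacement between given summits, but it can change which summits and genes fall within the window.

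The highest-scoring summit in each window was used, with Python 3.11.15 and pandas 2.3.3. The functions were tested on simulated data. Named genes were the 6 best mean ranks, the 6 largest displacements, all lost, gained, upstream or incomplete members and both copies of placed pairs. Members and lists were chosen with earlier results of these data known. Introns were not analysed here, and no sequence was used. Some members and neighbouring genes are counted but not reported by name here.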

Additional observations from a re-analysis of the deposited data

How the results depend on the processing

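Of 102 alternative values, 67 stayed within 1.5 times (counts) or 1 SD (displacement) of the reported one and 0 reversed. With gene bodies alone, where summits past the stop codon cannot count, 7 genes had a summit in all 4 libraries, 7 were lost, 0 gained, 6 displaced downstream by a median of 195 bp over the 7, 0 past the stop codon at either time, and 0 pairs had both copies downstream. With 500 bp, 2 were gained, and 16 and 5 lay past the stop codon at 6 h and 0 h. No share over all placed genes is given for the gene-body and 500 bp counts. With 1000 bp downstream, chosen after seeing the data, 0 were lost, 0 gained and 2 upstream, 19 and 8 of 33 lay past the stop codon (60.5% and 45.6% over all placed genes), 2 pairs had both copies downstream, and the median was 255.5 bp. Leaving out genes that share a best summit gave 10 downstream, a median of 380 bp, 4 and 1 past the stop codon and 0 pairs. These too have no share over placed genes under the same rule. Leaving out each library in turn gave medians of 241 to 341.5 bp, 20 to 21 genes downstream, 1 to 3 upstream, 1 to 3 lost and 1 to 2 gained. It gave 10 to 15 genes past the stop codon at 6 h, 2 to 4 at 0 h, and 1 to 2 pairs. Lost and upstream genes reached 3 without 0 h replicate 1, and upstream genes 2 without 6 h replicate 1; gained genes and pairs reached 2 without 0 h replicate 2. Keeping only the better-scoring 50% of summits could not change any value, because every member summit already lay in that part of its list. The lowest-ranked member summit stood at 501 in the list of 1074 summits of 6 h replicate 2. Choosing the summit nearest to the middle of the gene could not change a value either, because no member had more than 1 summit in its window. The unchanged values of both settings are among the 67 and say nothing about robustness. The cause of the changes under the other settings was not tested.

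Both time points have a replicate 1 and a replicate 2. Deviations of libraries with the same number correlated at r = 0.021 over 339 genes, which gives no ground for pairing them. Under a replicate block 19 genes were downstream and 1 upstream, and the mean within pairs was 2 lost and 1.5 gained. Over the 24 genes r was -0.19, and the crossed pairing gave 20 downstream, 3 lost and 2.5 gained. Read depth is unknown and limits how far a missing summit can be read. The 2 planned medians by intron were not run, since no coding length was in the table used.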
